A study of Drosophila melanogaster with 9 samples.

Results

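A set of 10 enzymes of amino acid metabolism was followed through acute hypoxia in adult flies: the transaminases Bcat, Got1 and Got2, the glutamine and glutamate enzymes Gs1, Gs2 and Gdh, the proline, ornithine and arginine enzymes slgA, Oat and arg, and the sarcosine enzyme Sardh. The members were all probe sets that the platform annotation gives to one of these gene symbols, which made 11 of the 18769 probe sets tested. Each of the 10 genes had 1 probe set of its own, and the eleventh probe set is annotated to arg together with svr, CG17896 and CG18273. The main fit had no filter on low values, so all 11 were tested.

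Whole Canton-S adults, a wild-type laboratory stock, were profiled on the Affymetrix Drosophila Genome 2.0 array with total RNA from samples of 25 males and females aged 5 to 6 days. In constant hypoxia (CH) the flies spent 2.5 hours at 1% O2. In intermittent hypoxia (IH) the gas alternated between 1% O2 for 4 min and 21% O2 for 4 min over the same 2.5 hours, with ramps between the levels per the study's methods, so IH flies spent less of that time at 1% O2 than CH flies did. The normoxia controls (NC) stayed in the same room for that time. Each group had 3 arrays, numbered 1 to 3 in the labels, and nothing read here tells whether flies of 1 group were exposed on separate occasions. The p-values therefore reflect the spread between these samples only, and that spread may be technical. The values are the signals normalized by the authors, as intensities on a linear scale. They are meant for comparison between arrays for a single probe set, although the array medians still ran from 594.1 to 822.5. Signals of different probe sets are not on a common scale, so no gene's RNA level is ranked against another's here. Across probe sets they are used only to call some bright or dim and to sum markers of a tissue. The sexes and tissues were pooled, so a larger share of a tissue and more RNA per cell cannot be told apart. The lowest signal of any marker on any array was 6851 for ovary and eggshell, 3437 for muscle, 855 for the male accessory gland, 432 for testis, 73.1 for neurons and 15.4 for fat body. The arrays carry no stated background level, so whether the dimmest of these were detected was not settled.

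Transaminases move an amino group from an amino acid to a keto acid, most often with glutamate as the partner, and so tie the breakdown of amino acids to glutamate and to the citric acid cycle. Glutamine synthetase and glutamate dehydrogenase then fix or release ammonia, and proline, ornithine and arginine all feed into the same glutamate pool. In insects proline is also a fuel of flight muscle, and the aspartate transaminases belong to the shuttle that carries reducing equivalents into mitochondria, which respire with oxygen.

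One of the 10 enzymes, Bcat, had a higher signal in CH than in both other groups on every array. The other 9 had log2 fold changes against normoxia between -0.10 and 0.22 in CH and between -0.057 and 0.14 in IH. None of these differences passed the test. A call needed an adjusted p under 0.05 (limma, Benjamini-Hochberg over the whole array), a fold outside 0.67 to 1.5, and single arrays that all lay on the same side of the other group's mean. With these limits 0 of the 11 member probe sets were called in CH against NC, where 0.0213% of all probe sets were called, and 0 in IH against NC, where 0% were. In CH against IH 0 were called, where 0.0373% of all probe sets were. With an unadjusted p in place of the adjusted one, Bcat alone was past the limits, in CH against NC, where 3.87% of all probe sets were past them, and in CH against IH, where 4.08% were. No member was past them in IH against NC, where 3.14% of all probe sets were. Since 1 of 11 is 9.09%, this count is no more than a single gene against a background of a few percent.

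**Figure D1:**
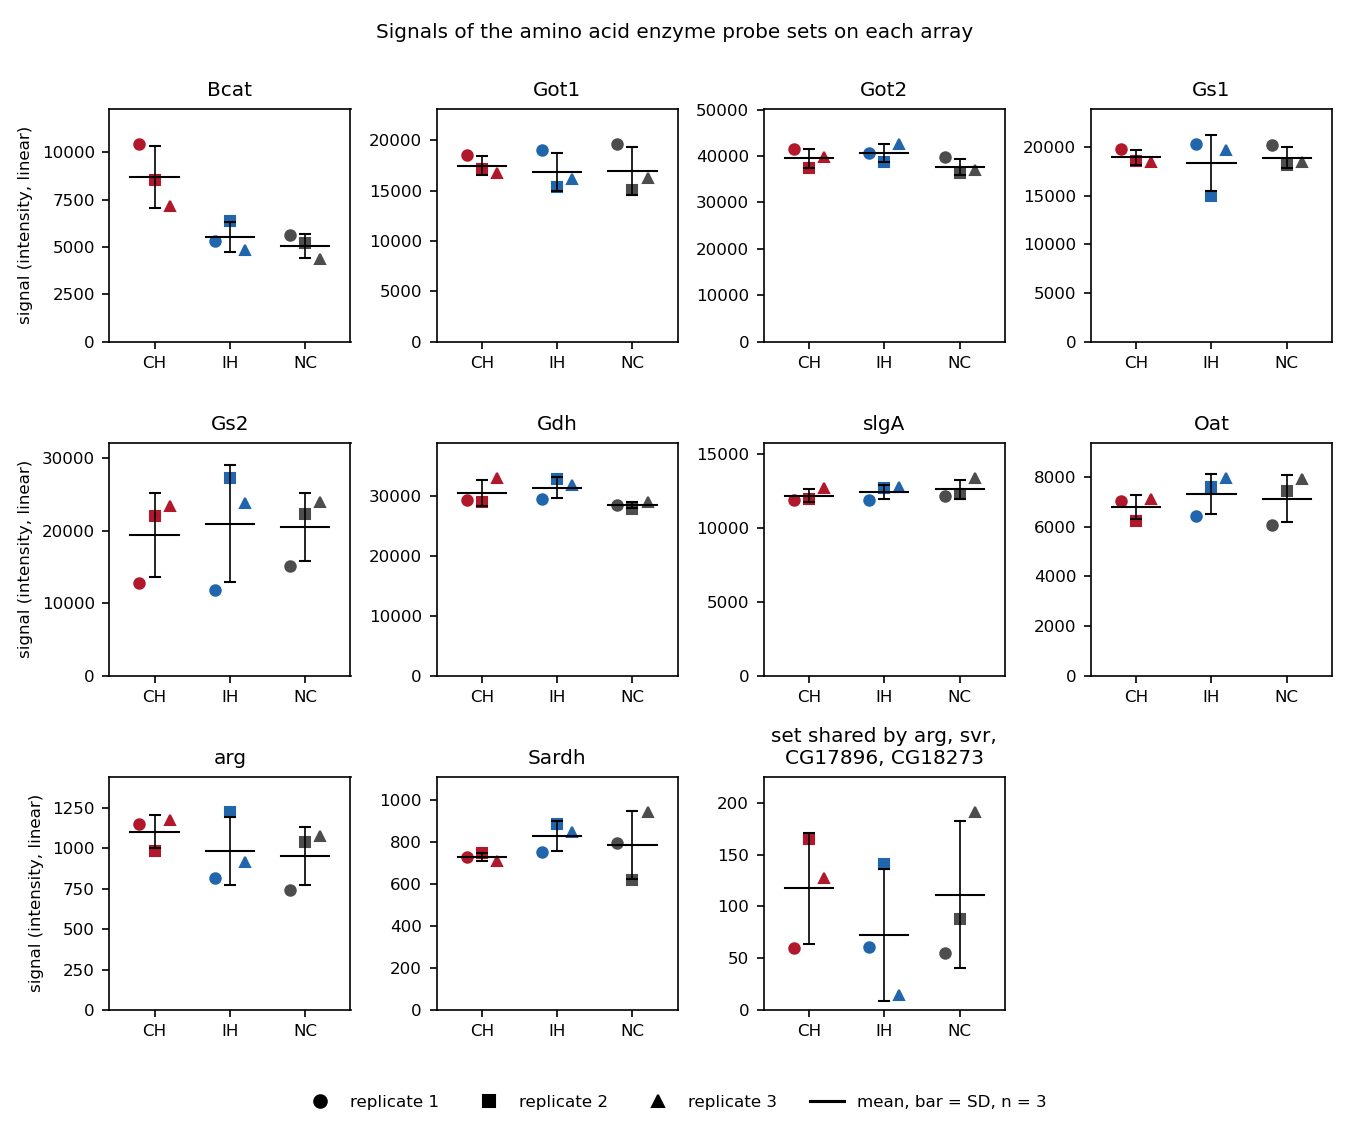
Signal (linear intensity, each vertical axis from 0) of the 11 member probe sets on the 9 arrays, with CH, IH and NC from left to right in every panel, 1 symbol per replicate number, and lines for the mean with bars of 1 SD (n = 3). Bcat lies higher on the CH arrays (7178 to 10440) than on the IH (4866 to 6399) and NC arrays (4374 to 5632), and Gs2 lies low on the arrays numbered 1 in all groups.

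Bcat encodes the branched-chain amino acid transaminase, which catalyses the first step in the breakdown of leucine, isoleucine and valine. Its signal was 10440, 8536 and 7178 on CH arrays 1, 2 and 3, 5336, 6399 and 4866 on the IH arrays, and 5632, 5200 and 4374 on the NC arrays. All CH arrays were above every IH and NC array, while the IH and NC arrays overlapped. The mean was 8718 ± 1639 in CH, 5534 ± 785 in IH and 5069 ± 639 in NC (SD, n = 3 each), so the signal in CH was 1.72 times that in NC and 1.58 times that in IH.

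On the log2 scale used for the test, log2(signal + 16), Bcat was higher in CH than in NC by 0.77 (SE 0.20, 95% interval 0.30 to 1.24), with an adjusted p of 0.640 (limma, 0.00511 before adjustment). As a fold the interval ran from 1.23 to 2.36. Over all probe sets, 147 (0.783%) had a smaller p in this comparison and 5.79% had a larger log2 fold change. An exact two-sided permutation test of the 3 CH against the 3 NC arrays gave p = 0.1, the smallest that 3 against 3 allows. Bcat is on the list of genes that the study drew from these same arrays for CH, so the values here are not independent evidence for it.

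Between IH and NC the log2 difference of Bcat was 0.12 (SE 0.20, interval -0.34 to 0.59, adjusted p 1.00 with limma), which in folds runs from 0.788 to 1.51. These groups are neighbours in the order CH, IH, NC and do not differ beyond their spread. The direct comparison of CH with IH gave 0.65 (SE 0.20, interval 0.18 to 1.11), with an adjusted p of 0.764 (limma, 0.0127 before adjustment), and the exact permutation test again gave 0.1. This difference was 0.51 without CH replicate 1 and 0.56 without IH replicate 3, in both cases under the fold limit. When each array was centred on its median it was 0.52.

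Markers of the reproductive tissues also stood above 0 in CH for the most part, and the markers are given beside Bcat because the flies were sampled whole. Of the testis markers 11 of 11 were above 0 in CH against NC, with a median log2 difference of 0.27, and the sum of their signals was 121374 to 142394 on the CH arrays, 74982 to 152045 on the IH arrays and 95931 to 113895 on the NC arrays. For the male accessory gland 11 of 12 markers were above 0 with a median of 0.28, and the sums were 214284 to 256348 in CH, 142736 to 243560 in IH and 186212 to 205338 in NC. For ovary and eggshell 9 of 11 were above 0 with a median of 0.20, and the sums were 721529 to 891176 in CH, 687778 to 997234 in IH and 542083 to 774203 in NC. In the same comparison 5 of 8 fat body markers were above 0 (median 0.099), 5 of 8 muscle markers (0.059) and 3 of 9 neuron markers (-0.054). Between IH and NC, where Bcat was at 0.12, the counts were 5 of 11 for testis (median -0.057), 6 of 12 for the accessory gland (0.0032) and 11 of 11 for ovary (0.21). The other lists there had 5 of 8 fat body (0.13), 2 of 8 muscle (-0.12) and 0 of 9 neuron markers (-0.21) above 0. In CH against IH, where Bcat was at 0.65, 10 of 11 testis (median 0.30), 12 of 12 accessory gland (0.33) and 7 of 11 ovary markers (0.011) were above 0. There the fat body had 2 of 8 above 0 (-0.035), muscle 8 of 8 (0.17) and neurons 6 of 9 (0.19). Beside these counts, 51.7% of all probe sets were above 0 in CH against NC, 45.3% in IH against NC and 57.0% in CH against IH. The 3 control probe sets for 18S ribosomal RNA were higher in CH than in NC by a mean log2 difference of 1.85 (exact permutation p = 0.1) and in IH than in NC by 2.22 (p = 0.2), and the difference between CH and IH was -0.37 (p = 0.8). Their mean log2 level was 8.19 to 9.68 on the CH arrays, 7.07 to 10.54 on the IH arrays and 6.88 to 7.40 on the NC arrays. The part of tissue shares and of ribosomal RNA in the Bcat signal was not tested.

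**Figure D2:**
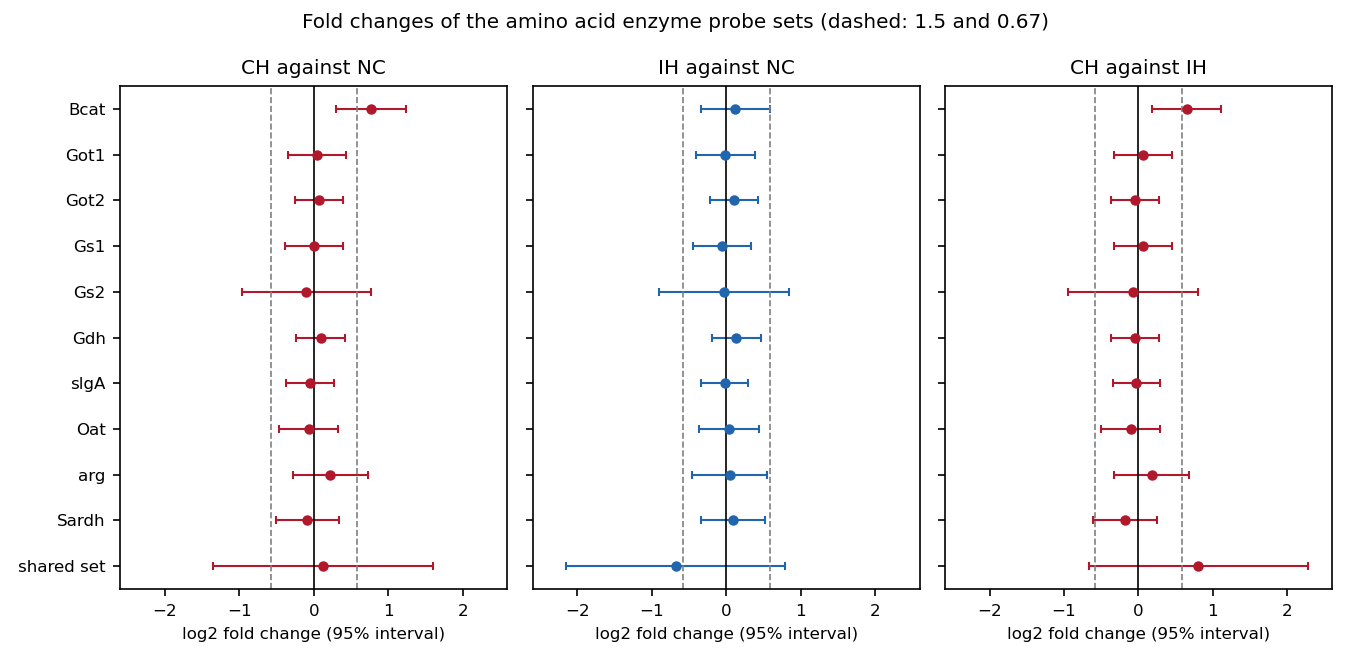
Log2 fold change of each member probe set with its 95% interval from the limma fit, in a panel each for CH and for IH against NC and for CH against IH, with dashed lines at folds of 1.5 and 0.67. The Bcat interval lies above 0 in CH against NC (0.30 to 1.24) and in CH against IH (0.18 to 1.11), and the intervals of the other 10 probe sets include 0 in all panels.

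The aspartate transaminases Got1, the cytosolic form, and Got2, the mitochondrial form, showed no such difference. Got1 had signals of 18507, 17106 and 16722 in CH, 18973, 15346 and 16167 in IH, and 19608, 15021 and 16250 in NC. Its highest array in each group was the one numbered 1, and the groups overlapped. In log2 fold change Got1 was at 0.048 (interval -0.34 to 0.44) in CH and at -0.0080 (-0.40 to 0.38) in IH. Got2 had signals of 41432, 37358 and 39730 in CH, 40648, 38760 and 42576 in IH, and 39703, 36421 and 37034 in NC. Its groups overlapped too, with log2 fold changes of 0.066 (-0.26 to 0.39) in CH and 0.11 (-0.22 to 0.43) in IH.

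Gdh encodes glutamate dehydrogenase, the mitochondrial enzyme that interconverts glutamate and 2-oxoglutarate. Its signal was 29319, 28969 and 32921 in CH, 29517, 32828 and 31705 in IH, and 28524, 27864 and 28908 in NC. Every CH and every IH array was above every NC array, but the step was small, since the means were 30403 ± 2187 in CH, 31350 ± 1684 in IH and 28432 ± 528 in NC (SD, n = 3 each). The log2 fold change was 0.094 (interval -0.23 to 0.42) in CH and 0.14 (-0.19 to 0.47) in IH, with an adjusted p of 1.00 in both (limma). Without overlap between arrays, Bcat and Gdh were 2 of the 11 members in CH against NC, where the arrays of 12.5% of all probe sets did not overlap, and Gdh was 1 of 11 in IH against NC, where those of 6.67% did not. The separation of Gdh was lost in both comparisons when arrays were centred on their medians, and in CH after quantile normalization.

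Gs1, the mitochondrial glutamine synthetase, makes glutamine from glutamate and ammonia. Its signal was 19780, 18519 and 18475 in CH, 20297, 14999 and 19665 in IH, and 20160, 18099 and 18492 in NC. IH array 2 was the lowest of the 9, and the log2 fold change was 0.0014 (interval -0.39 to 0.39) in CH and -0.057 (-0.44 to 0.33) in IH. The sign of so small a difference turned under quantile normalization or centring in CH and under centring or array weights in IH.

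Gs2, the cytoplasmic glutamine synthetase, had the largest residual SD within groups among the 10 genes, 0.508 on the log2 scale, and it varied with the replicate number. Its signal was 12768, 22077 and 23341 in CH, 11823, 27224 and 23865 in IH, and 15147, 22242 and 23989 in NC. The arrays numbered 1 held 11823 to 15147 and the other 6 arrays 22077 to 27224, with no overlap, in all 3 groups. Array 1 was below the mean of arrays 2 and 3 by a log2 difference of -0.83 in CH, -1.11 in IH and -0.61 in NC. Between the groups the signals overlapped, and the log2 fold change was -0.10 (SE 0.38, interval -0.97 to 0.77) in CH and -0.024 (-0.90 to 0.85) in IH, intervals that reach past the fold limits on both sides when the fit leaves out the replicate number. With the replicate number as a block, the SE was 0.16 and the interval in IH against NC was -0.41 to 0.36, within the fold limits. Without the arrays numbered 1, a choice made after seeing the data, the SE was 0.17 and the difference was -0.025 in CH and 0.14 in IH.

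Low signals on the arrays numbered 1 were not particular to Gs2. Over all probe sets 8.26% were lower on all arrays numbered 1 than on all 6 others, as Gs2 was, and 9.25% were higher, as Got1 and Gs1 were among the members. Of the neuron markers 9 of 9 had a lower mean on the arrays numbered 1, with a median log2 difference of -0.50, and their summed signal was 10321 to 13812 there and 13369 to 21375 on the others. Of the muscle markers 8 of 8 were lower, with a median of -0.51 and sums of 119813 to 167968 against 163146 to 220783 on the others. Of the fat body markers 5 of 8 were lower (median -0.30), with sums of 346443 to 380690 on the arrays numbered 1 and 387684 to 488457 on the others. Of the ovary markers 9 of 11 were lower (-0.29), of the testis markers 8 of 11 (-0.12) and of the accessory gland markers 4 of 12 (0.17). The share of all probe sets with a lower mean on these arrays is not given here, so these marker counts stand without a background. The ratio of the 3′ to the 5′ control probe set for actin, a sign of RNA quality, was 1.65 to 1.94 on the arrays numbered 1 and 1.23 to 1.43 on the others, without overlap. The same ratio for GAPDH was 1.66 to 1.98 on the arrays numbered 1 and 1.35 to 1.82 on the others, with overlap. The part of tissue shares and of RNA quality in the Gs2 pattern was not tested, and the labels do not say what the numbers stand for.

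**Figure D3:**
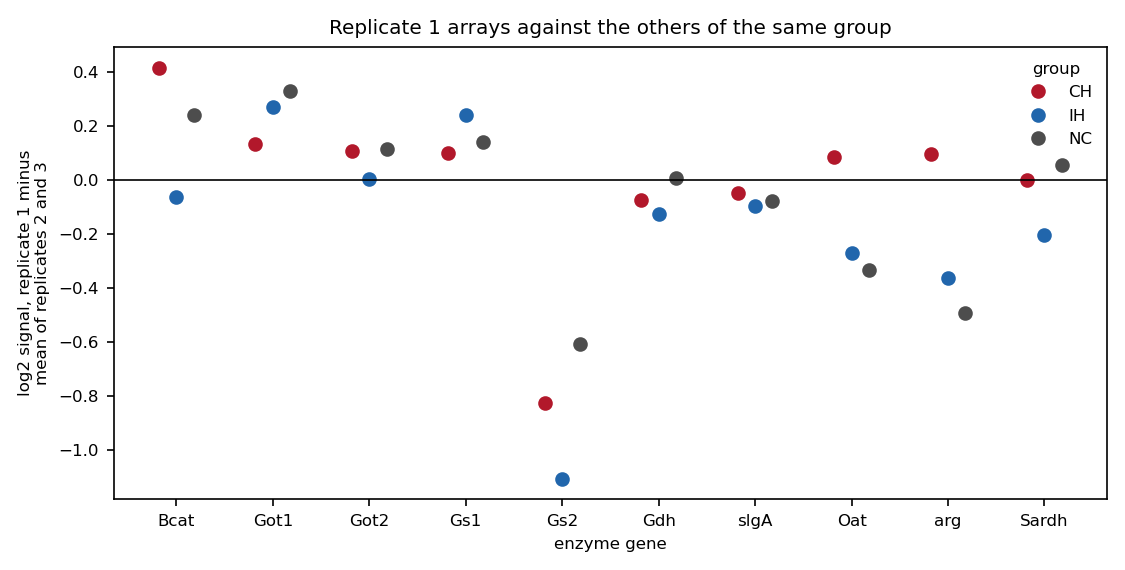
Log2 signal of the array numbered 1 minus the mean of the arrays numbered 2 and 3, for each of the 10 enzymes in CH, IH and NC (1 point per group, 0 marked by a line). Gs2 lies at -0.83, -1.11 and -0.61, Got1 and Gs1 lie above 0 in all groups, and Bcat lies at 0.41 in CH, -0.064 in IH and 0.24 in NC.

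Of the enzymes around proline and arginine, slgA, the proline dehydrogenase that starts proline breakdown in mitochondria, was the steadiest member. Its signal was 11929, 11998 and 12690 in CH, 11887, 12696 and 12766 in IH, and 12158, 12313 and 13382 in NC. The residual SD across arrays was 0.061 on the log2 scale, smaller than that of 99.5% of all probe sets. Against normoxia slgA was at a log2 fold change of -0.047 (interval -0.37 to 0.27) in CH and -0.019 (-0.34 to 0.30) in IH.

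Oat, the ornithine aminotransferase that links ornithine to glutamate and proline, had signals of 7037, 6216 and 7098 in CH, 6424, 7585 and 7951 in IH, and 6072, 7426 and 7899 in NC. The groups overlapped, and the log2 fold change was -0.066 (-0.46 to 0.33) in CH and 0.040 (-0.36 to 0.44) in IH.

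The arginase gene arg, whose enzyme splits arginine into ornithine and urea, had signals of 1151, 986 and 1174 in CH, 819, 1224 and 916 in IH, and 745, 1039 and 1075 in NC. The CH mean of 1104 ± 103 was above the IH mean of 986 ± 212 and the NC mean of 953 ± 181 (SD, n = 3 each), with overlapping arrays. The log2 fold change was 0.22 (interval -0.28 to 0.73) in CH and 0.047 (-0.46 to 0.55) in IH. After Bcat this was the largest difference among the 10 genes in CH, and the interval leaves a fold above 1.5 possible. It ran between 0.058 and 0.32 with one array left out, the lowest being that without NC replicate 1.

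The probe set shared by arg, svr, CG17896 and CG18273 had dim signals of 60.0, 165 and 127 in CH, 60.8, 141 and 14.9 in IH, and 54.7, 88.0 and 191 in NC. They spread over a 12.8-fold range with no separation of the groups, and cannot be given to one gene. The log2 fold change was 0.12 (interval -1.35 to 1.60) in CH and -0.68 (-2.15 to 0.79) in IH.

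Sardh, the mitochondrial sarcosine dehydrogenase, turns sarcosine into glycine. Its signal was 727, 747 and 708 in CH, 749, 886 and 847 in IH, and 794, 619 and 940 in NC. The CH arrays were all below the IH arrays, though CH array 2 and IH array 1 lay close together, and both groups overlapped with NC. The log2 fold change was -0.086 (interval -0.51 to 0.34) in CH, 0.092 (-0.33 to 0.52) in IH and -0.18 (-0.60 to 0.25) between CH and IH. With Bcat above and Sardh below, 2 of 11 members had arrays that did not overlap in CH against IH, where those of 7.86% of all probe sets did not.

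The intervals show how far the enzymes without a difference could have moved unseen. In CH against NC the 95% intervals of 7 of the 11 members lay wholly between the fold limits of 0.67 and 1.5, those of Got1, Got2, Gs1, Gdh, slgA, Oat and Sardh. In IH against NC there were 8, arg added, and in CH against IH there were 6, without arg and Sardh. These counts are from the fit without the replicate number. With it as a block, the intervals of Bcat (-0.24 to 0.49) and Gs2 (-0.41 to 0.36) also lay between the limits in IH against NC. That of Gs2 did so too in CH against NC (-0.49 to 0.29) and in CH against IH (-0.46 to 0.31). Over all probe sets, in the fit without the block, the share was 21.7% for CH and 23% for IH against normoxia, and 21.6% between CH and IH. Bright probe sets vary less, and 8 members had a mean signal above 5000. Among the 3110 probe sets above that level the share was 58.6%, 60.7% and 58.6% in the same order. The median residual SD was 0.156 on the log2 scale for the 10 genes, 0.376 for all probe sets and 0.195 for those above 5000.

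The median log2 fold change of the 11 members was 0.048 in CH and 0.040 in IH against normoxia, and -0.028 between CH and IH. Over all probe sets it was 0.011 in CH and -0.024 in IH against normoxia, and 0.046 between CH and IH. In CH against IH the log2 differences other than that of Bcat ran between -0.18 and 0.18 for the 9 genes. Got1 was at 0.056 (interval -0.33 to 0.45), Got2 at -0.042 (-0.37 to 0.28), Gs1 at 0.059 (-0.33 to 0.45), Gdh at -0.045 (-0.37 to 0.28) and slgA at -0.028 (-0.35 to 0.29). For Gs2 the interval of -0.95 to 0.80, from the fit without the replicate number, reaches past the limits on both sides.

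Further enzymes of the pathways around the 10 were described as a list of 51, of which 44 were measured by a probe set of their own. None was called in any comparison (limma). At an unadjusted p under 0.05 and past the fold and direction limits, 1 was higher and 2 were lower in CH than in NC, 0 were higher and 2 lower in IH than in NC, and 3 were higher and 2 lower in CH than in IH. As a share these were 6.82% of the 44 in CH against NC, where 3.87% of all probe sets were past the same limits, 4.55% in IH against NC, beside 3.14%, and 11.4% in CH against IH, beside 4.08%. The median log2 fold change was -0.070 in CH with 12 of 44 above 0, -0.044 in IH with 15 above 0, and -0.033 in CH against IH with 19 above 0. Over all probe sets 51.7% were above 0 in CH against NC, 45.3% in IH against NC and 57.0% in CH against IH. The 7 genes for steps after Bcat in branched-chain breakdown, some of them for subunits of the same enzyme, had a median of -0.081 in CH against NC. Their range was -0.19 to 0.0097, with 1 of 7 above 0. None of the 7 had an unadjusted p under 0.05 in any comparison (limma).

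The phosphatase aay, which performs the last step of serine synthesis, had the smallest p of the 44 in CH against NC. Its signal was 24734, 22381 and 24531 in CH, 15930, 17079 and 14825 in IH, and 14751, 11162 and 10148 in NC. The 3 groups did not overlap and stood in the order CH, IH, NC, though IH array 3 and NC array 1 lay close together. In CH against NC the log2 fold change was 1.01 (SE 0.18, interval 0.59 to 1.42), with an adjusted p of 0.305 (limma, 0.000503 before adjustment). It was called, at an adjusted p of 0.0274, when the spread was allowed to follow the mean signal with robust estimation, and at 0.0413 with array weights. In IH against NC it was 0.42 (interval 0.0061 to 0.84) and in CH against IH 0.58 (0.17 to 1.00).

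Of the 4 enzymes with the smallest p in CH against IH, 3 act in the breakdown of tyrosine. The first, Hpd, the hydroxyphenylpyruvate dioxygenase, which uses molecular oxygen, had signals of 11920, 14478 and 15770 in CH, 4929, 7157 and 7331 in IH, and 10187, 9485 and 8948 in NC. The IH arrays were all below and the CH arrays all above those of NC. The log2 fold change was 0.55 (interval 0.077 to 1.02) in CH, -0.58 (-1.05 to -0.11) in IH and 1.13 (0.66 to 1.60) in CH against IH, where the adjusted p was 0.260 (limma). The next dioxygenase of the pathway, hgo, had means of 3519 ± 382 in CH, 2162 ± 513 in IH and 2458 ± 307 in NC (SD, n = 3 each), with a log2 difference of 0.72 (interval 0.22 to 1.23) between CH and IH. GstZ2, of the isomerase family that acts after hgo, had means of 532 ± 76.0 in CH, 328 ± 81.9 in IH and 441 ± 63.8 in NC (SD, n = 3 each) and a difference of 0.69 (0.16 to 1.21). Other tyrosine enzymes, named after their values were seen, lay nearer 0 in the same comparison, with Tat, the aminotransferase before Hpd, at 0.17 (interval -0.33 to 0.68), Faa, the hydrolase of the last step, at 0.055 (-0.40 to 0.51) and GstZ1 at -0.040 (-0.45 to 0.37). Of the 8 measured enzymes for aromatic amino acids, 6 were above 0 in CH against IH, beside 57.0% of all probe sets, and 3 had an unadjusted p under 0.05 (limma), beside 4.77% of all probe sets. Since the lists were drawn up with earlier results of these arrays known, the count describes these arrays only.

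Gnmt, which makes the sarcosine that Sardh removes, had means of 11688 ± 3537 in CH, 21407 ± 5738 in IH and 20665 ± 3978 in NC (SD, n = 3 each). Its CH arrays were all below those of IH and NC, and the log2 fold change in CH was -0.85 (interval -1.53 to -0.16, adjusted p 0.906 with limma). Odc2, an ornithine decarboxylase, was dim, with means of 95.5 ± 19.3 in CH, 84.4 ± 42.9 in IH and 219 ± 58.6 in NC (SD, n = 3 each). Its log2 fold change was -1.06 (interval -1.91 to -0.21) in CH and -1.31 (-2.16 to -0.46) in IH, on a scale that understates changes of dim probe sets. Agxt, the alanine-glyoxylate transaminase, had means of 6276 ± 482 in CH, 4912 ± 697 in IH and 6336 ± 269 in NC (SD, n = 3 each), with a log2 fold change of -0.37 (interval -0.75 to -0.00070) in IH.

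**Figure D4:**
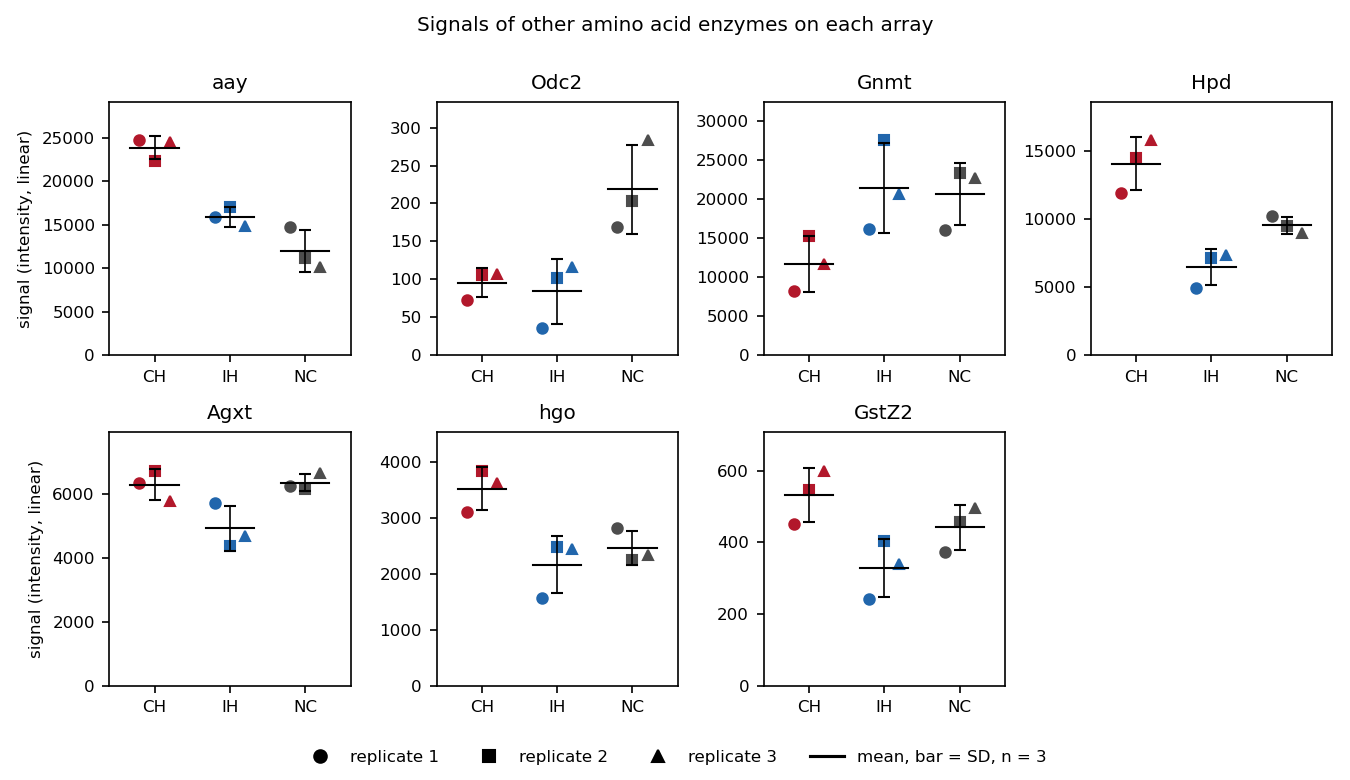
Signal (linear intensity, each vertical axis from 0) of the 7 further amino acid enzymes that were among the 4 with the smallest p in at least 1 comparison, on the CH, IH and NC arrays from left to right, with the mean and 1 SD (n = 3). The signals of aay lie in the order CH, IH, NC without overlap, with IH array 3 close to NC array 1. Those of Hpd lie above NC in CH and below NC in IH.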

How the data were processed

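Total RNA of whole flies was hybridized to Affymetrix Drosophila Genome 2.0 arrays, 3 each for CH, IH and NC. The authors used the affy package of Bioconductor for normalization, with options and version not given in the sources used here, and deposited an intensity per probe set on a linear scale. No per-sample column was left unused. Array medians were 594 to 823 (594.1 and 822.5), and arrays have no read depth, so their number limits the precision.

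The deposited intensities of 18769 probe sets, without 183 control probe sets, were taken to log2 after adding 16. In the platform annotation 13647 of them carry a single gene symbol, 402 carry several and 4720 carry none. Group means were fitted on all 9 arrays with limma 3.58.1 in R 4.3.3 (lmFit and eBayes, prior degrees of freedom 2.19), and p-values were adjusted over all probe sets by Benjamini-Hochberg. The call limits follow the methods of the study, and limma stands in for its VAMPIRE suite, which was not run. The fit was also run on simulated data with known changes, independent noise and no effect of the replicate number. That run therefore says nothing about such an effect in these arrays. Differences of single values were also checked with exact permutation tests. Deviations from the group means of arrays with the same number correlated at 0.322, 0.162 and 0.113 between IH and NC, all over 0.1. Those numbers were therefore taken to pair the samples of IH and NC. With CH the same-number correlations ran from 0.0918 to 0.291, not all over 0.1. They too were above every value for different numbers, at most 0.0833. The main fit leaves the number out, and a block for it in all 3 groups is among the alternatives.

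The members and the gene lists were chosen with earlier results of these data known. Named were all members and, of the further enzymes, the 4 with the smallest p in each comparison, 1 probe set a gene, that of the highest mean. The receptor gene Lkr, listed among the enzymes in error, was left out. Alternatives were the 2 groups compared only, a block for the replicate number, a filter on the dimmest 40%, a mean-dependent spread, array weights, quantile normalization, median centring, 1 or 50 in place of 16, each array left out, and, added after seeing the data, no arrays numbered 1. Sequences and coordinates were not used here.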

Additional observations from a re-analysis of the deposited data

Results flagged for a closer look

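CH and IH share the lowest level of O2 and differ in its pattern and in the time spent at it. The direct comparison between them had an unadjusted p under 0.05 (limma) for Bcat among the members and for 6 of the 44 further enzymes, against 4.77% of all probe sets. None of the 7 passed the adjustment over all probe sets. In 5 of them the arrays of CH lay above those of IH without overlap and in 2 below. Genes picked by a small p in this comparison tend to separate in this way, so these counts describe the choice. Before that choice, 1 of the 11 members lay above and 1 below, and of the 44 further enzymes 6 lay above and 3 below. Over all probe sets 5.07% lay above and 2.79% below.

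The log2 difference was 0.65 for Bcat (unadjusted p 0.0127, adjusted p 0.764 with limma), higher on 3 of 3 CH arrays. It was 1.13 for Hpd (unadjusted p 0.000544, adjusted p 0.260), where the CH arrays held 11920 to 15770 and the IH arrays 4929 to 7331. It was 0.72 for hgo (unadjusted p 0.0110, adjusted p 0.734) and 0.69 for GstZ2 (unadjusted p 0.0162, adjusted p 0.801), which belong to the same breakdown of tyrosine as Hpd. For aay it was 0.58 (unadjusted p 0.0120, adjusted p 0.747). The difference was -0.88 for Gnmt (unadjusted p 0.0177, adjusted p 0.815 with limma), where the CH arrays held 8180 to 15253 and the IH arrays 16101 to 27496. It was -0.74 for LKRSDH (unadjusted p 0.0378, adjusted p 0.986), an enzyme of lysine breakdown, whose signals were 641 to 826 in CH and 970 to 1737 in IH. LKRSDH falls outside the rule for named genes and was named after its values were seen.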

How the results depend on the processing

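No member was called under any of the 18 alternatives listed in the processing or without the arrays numbered 1. Over all alternatives the log2 fold change of Bcat stayed between 0.63 and 0.90 in CH against NC (adjusted p 0.174 to 1.00, limma), 0.016 and 0.23 in IH against NC, and 0.49 and 0.78 in CH against IH (adjusted p 0.0596 to 1.00). With one array left out it was 0.63 to 0.90 in CH against NC (adjusted p 0.541 to 1.00) and 0.51 to 0.78 in CH against IH (0.291 to 1.00).

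The members past the limits at an unadjusted p in CH against IH, 1, became 2 with array weights, which added the probe set shared with arg at 2.03, and 0 with median centring or without the arrays numbered 1, where Bcat was at 0.49. Members without overlap in CH against NC, 2, became 1 with quantile normalization or centring and 5 without the arrays numbered 1. In IH against NC this count, 1, became 0 with centring and 2 without the arrays numbered 1, and in CH against IH, 2, it became 6 without them. With fewer arrays a group separates more easily. Of the further enzymes, the 0 called in CH against NC became 1 (aay) with a mean-dependent spread and 1 with array weights (log2 fold change 1.08), and the 0 in CH against IH became 1 (Hpd, 1.04, adjusted p 0.0202) with array weights. Their count at an unadjusted p in CH against NC, 3, became 5 with array weights and without the arrays numbered 1. In IH against NC, 2, it became 1 with the dimmest 40% left out, array weights, centring, 50 in place of 16, or no arrays numbered 1. Centring moves every log2 fold change of a comparison by the same amount. Relative to the median of all probe sets, Bcat was at 0.60 in CH against IH both as deposited and with centring, which holds by construction. The cause of the other shifts was not tested.

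With one array left out the members without overlap numbered 2 to 5 in CH against NC, 1 to 2 in IH against NC and 2 to 6 in CH against IH, and those at an unadjusted p 0 to 1 in CH against IH. The further enzymes at an unadjusted p numbered 1 to 5, 1 to 3 and 2 to 5 in the same order of comparisons.

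Signs turned for values near 0. In CH against NC, Gs1 was -0.012 with quantile normalization and -0.042 with centring, and the shared probe set was -0.018 with quantile normalization. In IH against NC, Got1 was 0.011 with array weights, 0.074 with centring and 0.012 without the arrays numbered 1. Gs1 was 0.069 with weights and 0.024 with centring, Gs2 0.081 with weights, 0.057 with centring and 0.14 without the arrays numbered 1, slgA 0.063 with centring, and arg -0.12 with weights. In CH against IH, Got1 was -0.069 with centring, and Gs1 -0.062 with weights and -0.067 with centring. With one array left out, in CH against NC, Got1 ran from -0.034 to 0.16, Gs1 from -0.031 to 0.048, Gs2 from -0.30 to 0.18, Oat from -0.18 to 0.012, Sardh from -0.24 to 0.052 and the shared probe set from -0.23 to 0.55. In IH against NC, Got1 ran from -0.097 to 0.10, Gs1 from -0.14 to 0.080, Gs2 from -0.26 to 0.34, slgA from -0.045 to 0.024, Oat from -0.071 to 0.13, arg from -0.12 to 0.17 and Sardh from -0.065 to 0.23. In CH against IH, Got1 ran from -0.0070 to 0.15, Gs1 from -0.079 to 0.14 and Gs2 from -0.44 to 0.20.

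Centring moved the median of all probe sets in CH against IH to -0.080, against 0.046 as deposited. Probe sets past the limits at an unadjusted p in CH against IH were 574 higher and 192 lower as deposited, 372 and 350 with centring, and 342 and 366 with quantile normalization. In CH against NC they were 477 and 250, 418 and 325, and 343 and 340, and in IH against NC 228 and 361, 315 and 269, and 279 and 277. Called probe sets in CH against NC numbered 4, but 0 in the fit of 2 groups, 15 without the dimmest 40%, 17 with a mean-dependent spread, and 29 higher and 5 lower with array weights. In CH against IH they were 5 higher and 2 lower, but 219 and 53 with array weights, and in IH against NC 0, but 57 and 102.

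Deviations of arrays of the same number correlated at 0.0918 to 0.322, against -0.212 to 0.0833 for different numbers. Every array correlated best with its own number, in CH as in IH and NC. By the limit of 0.1 the numbers were taken to pair only IH with NC, while the block covers all 3 groups. With the replicate number as a block, Bcat had an adjusted p of 0.350 (limma, 0.00214 before adjustment) in CH against NC and an adjusted p of 0.432 in CH against IH (limma), and the counts of members, 0 called in each comparison and 1, 0 and 1 at an unadjusted p, did not move. For Gs2 the block interval was -0.49 to 0.29 in CH against NC and -0.46 to 0.31 in CH against IH. Over all probe sets the called number was 1 in CH against NC and 0 in CH against IH with the block.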
